A study of Mus musculus with 11 samples.

Results

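The genes described here encode the proteins of the mitochondrial ribosome. They were taken as every gene whose only symbol in the annotation of the array began with Mrpl or Mrps, which gave 76 of 18193 genes, 47 with an Mrpl (large subunit) and 29 with an Mrps (small subunit) symbol. Where a gene had more than 1 probe set, the one with the highest mean intensity was used, as was needed for 42 of the 76. The rule uses the symbol and the mean over all arrays, and no difference between groups. Mrpl30 and Mrpl53 appeared only on probe sets that also list another gene and were not included.

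The mitochondrial ribosome sits in the mitochondrial matrix and translates the few proteins that mitochondrial DNA encodes, all of them subunits of the respiratory chain and of ATP synthase. Its ribosomal RNAs come from mitochondrial DNA, whereas all of its proteins are encoded in the nucleus and imported. Many of these proteins have a counterpart in the bacterial ribosome, and the others are particular to mitochondria. In fat cells mitochondria gain mass during differentiation, and they supply precursors for fatty acid synthesis.

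The RNA of 3T3-L1 adipocytes, mouse preadipocytes of a cell line turned into fat cells in culture, was hybridised to 11 Affymetrix arrays after 3 treatments that the labels present as ways of producing insulin resistance. The TNF group (n = 3) received 2 ng/ml of tumour necrosis factor, an inflammatory cytokine, for 4 days. The DEX group (n = 3) received 20 nM dexamethasone, a synthetic glucocorticoid, in 0.01% ethanol for 8 days. The chronic insulin group (CI, n = 2) received 4 additions of 10 nM insulin, and the control group (n = 3) is labelled as untreated. Treatments were staggered so that all cells were the same number of days past differentiation when harvested, and the labels name the ethanol carrier as the control for DEX without saying whether the control cells received it. Separate cultures are not mentioned for the arrays of a group, so the p-values reflect only how these samples spread, and that spread may be technical.

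The deposited values are linear intensities with array medians of 124.5 to 129.5, and precision is limited by having 2 or 3 arrays a group. Differences were taken on log2(intensity + 16), and a gene passed at an adjusted p under 0.05 (limma, Benjamini-Hochberg adjustment over 15623 genes). The adipocyte markers Adipoq and Fabp4 lay between 20816 and 23388 on every array, near the highest intensity of the data, 25933. Of the 12 adipocyte markers tested, 7 (58.3%) fell and 0 rose in TNF and 5 (41.7%) fell and 2 (16.7%) rose in DEX. In CI 1 (8.33%) fell and 2 (16.7%) rose. Of all tested genes 11.2% fell and 13.9% rose in TNF, 13.6% and 14.0% in DEX, and 8.88% and 8.38% in CI. The adipocyte shares that rose in DEX and fell in CI were near these. Slc2a4 fell most in DEX, with 1339, 1355 and 1669 against 2722, 2380 and 2515 in control. A sum of intensities weighs bright genes most. The summed intensity of the 12 adipocyte markers with a probe set was 108861 to 111622 in TNF, 128096 to 136886 in DEX, 128722 to 130422 in CI and 133478 to 135269 in control. The 14 macrophage and leukocyte markers with a probe set summed to 7844 to 8242 in TNF and 4341 to 4779 in DEX. Their sum was 4993 to 5327 in CI and 5649 to 5887 in control. Of the 12 that were tested, 4 (33.3%) rose and 2 (16.7%) fell in TNF, and 1 (8.33%) rose and 3 (25%) fell in DEX. In CI 1 (8.33%) rose, a share near that of all tested genes, and 2 (16.7%) fell. Cd74 had 981.4 to 1093 in TNF and 247.2 to 294.5 in control, Mpeg1 had 245.1 to 283.2 in DEX and 806.7 to 946.0 in control, and Adgre1 lay between 90.1 and 117.4 on every array. The 15 preadipocyte and fibroblast markers with a probe set summed to 64590 to 67795 in TNF and 40932 to 46734 in DEX. Their sum was 51510 to 54031 in CI and 57603 to 64773 in control. Of the 14 that were tested, 4 (28.6%) rose and 3 (21.4%) fell in TNF, with a median log2 fold change of -0.09. In DEX 2 (14.3%) rose, a share near that of all tested genes, and 7 (50%) fell. In CI 0 rose and 5 (35.7%) fell. The part of these marker lists in the results was not tested. In bulk RNA, fewer cells of a type and less RNA per cell cannot be told apart.

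3 treated arrays had the highest level of these genes in their group. With only 2 CI arrays, which of them departs from the usual level cannot be told. The median difference of the 76 genes from their control means (log2) was -0.08 on TNF replicate 3, against -0.15 and -0.14 on the other TNF arrays. It was 0.17 on DEX replicate 2, against 0.02 and 0.04 on the other DEX arrays, and 0.10 on CI replicate 1, against 0.00 on CI replicate 2. The same 3 arrays had the highest ratio of 3′ to 5′ actin probe sets in their groups, at 1.69, 1.73 and 1.82, where the other 8 arrays had 1.43 to 1.58. This ratio is a measure of RNA and cRNA integrity. The median of 18 hybridization spike probe sets (log2) was also low on these 3 arrays, at 10.02, 10.07 and 10.13, and on CI replicate 2, at 9.96, against 10.24 to 10.38 on the other 7 arrays, so both CI arrays lay below every control array in it. The part of both measures in the results was not tested.

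All 76 genes were well above the filter on dim genes (mean intensity 51.7), with means over all arrays of 375 for Mrpl55 to 7850.4 for Mrps6 and a median of 1437. No gene changed by more than 2-fold in any comparison, and the median standard error of a difference was 0.066 (log2) for TNF and DEX against control and 0.0738 for CI against control. In RefSeq (build GRCm38.p6) the genes lie on 17 chromosomes, with 11 of them on chromosome 11 and 8 on chromosome 17. Of the 76, 24 overlap another annotated gene, and each probe set is named by the gene that the array annotation gives.

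**Figure D1:**
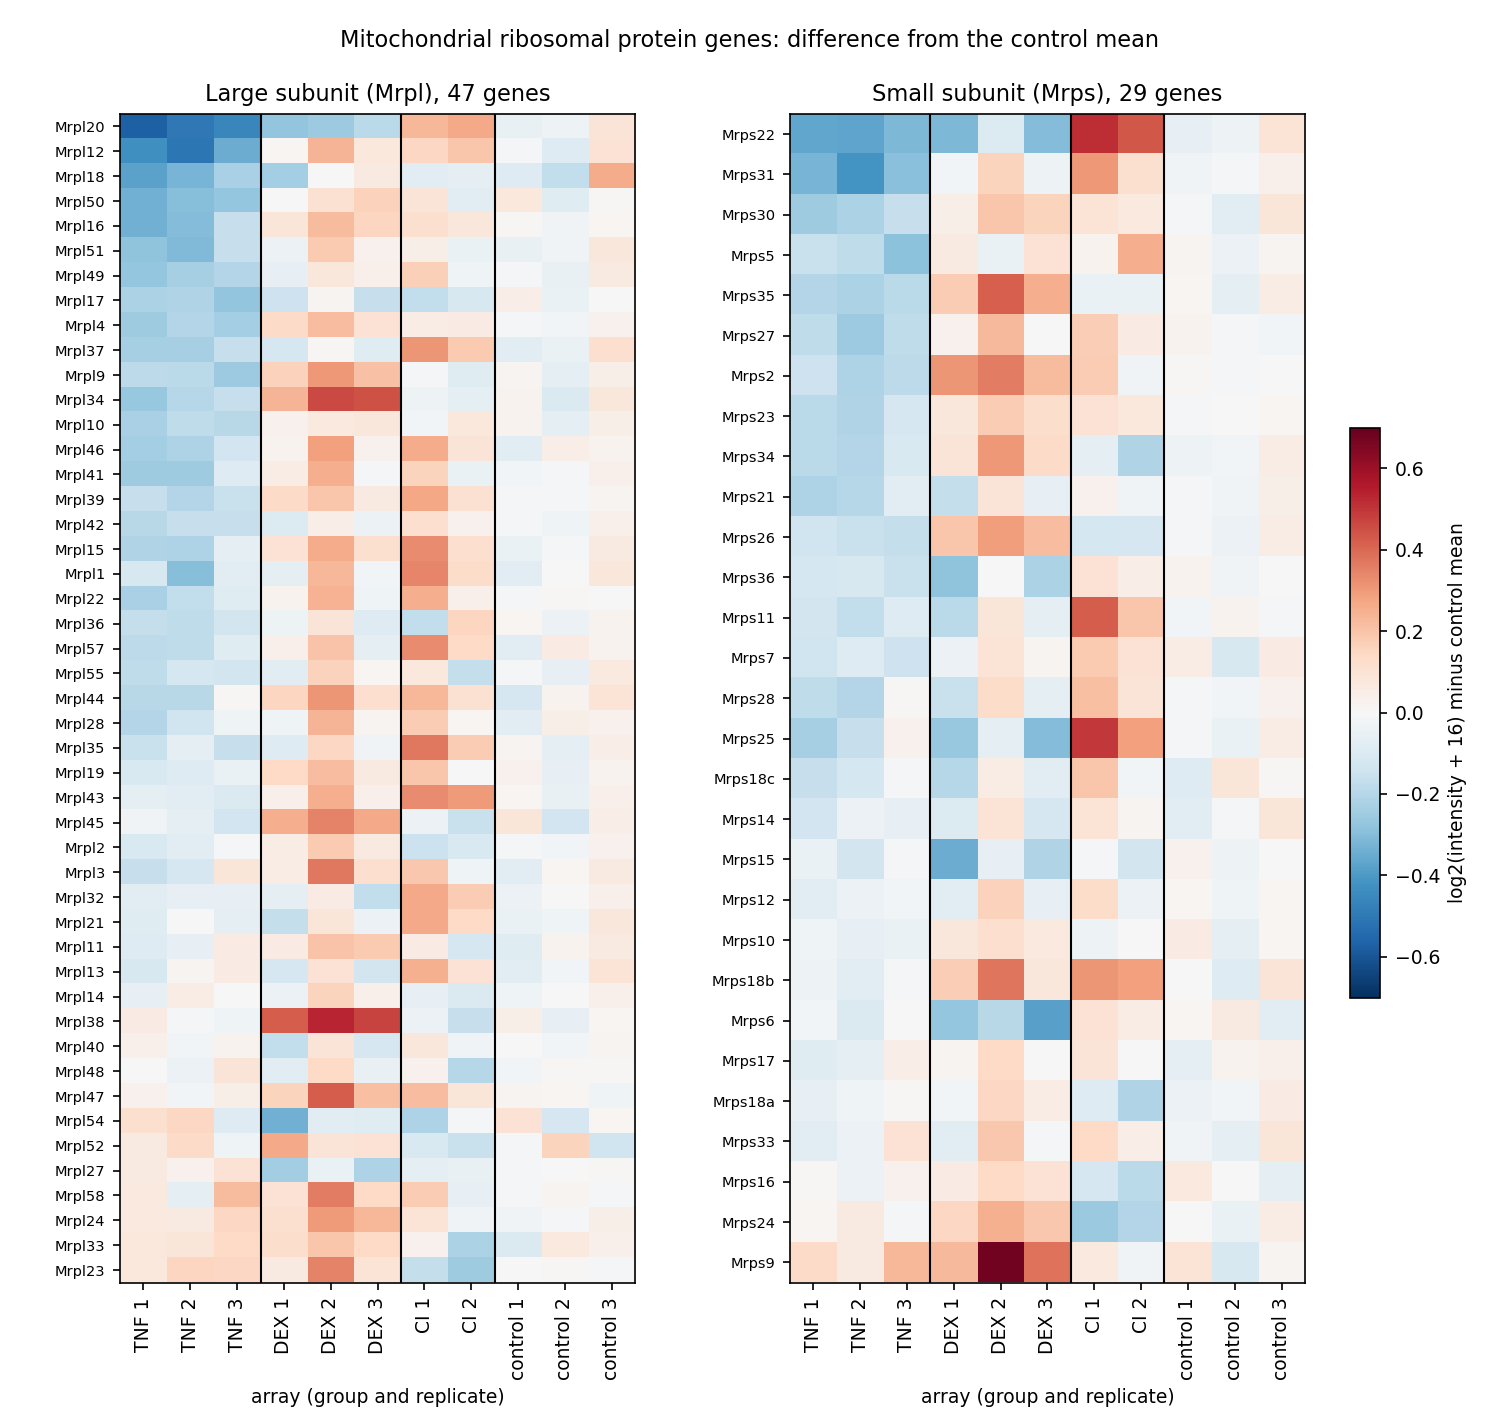
Difference of each of the 76 mitochondrial ribosomal protein genes (rows; 47 Mrpl in one panel, 29 Mrps in the other) from its control mean on each of the 11 arrays (columns), in log2(intensity + 16). The TNF columns are mostly negative, and the columns of DEX replicate 2 and CI replicate 1 are the most positive of their groups.

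TNF against control asked how 4 days of the cytokine altered the RNA of these genes. 24 of the 76 fell and none rose, where 11.2% of all tested genes fell and 13.9% rose. At an unadjusted p under 0.05 in limma, 31 of the genes were lower and 0 higher. In all 24 the TNF arrays lay below every control array. Counted without the test, the TNF arrays lay below every control array in 38 of the 76 genes and above in 4, where this held for 21.3% and 21.8% of all tested genes. The median log2 fold change of the 76 genes was -0.13, against -0.01 over all tested genes, and 62 of the 76 lay below 0, as did 53.9% of all tested genes. That none rose depended on using the brightest probe set for each gene. When a gene's probe sets were averaged instead, 21 of these genes passed as lower and 1 as higher in TNF against control.

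Among the large subunit genes, Mrpl20, whose bacterial counterpart binds ribosomal RNA early in assembly, changed most. Its intensity was 1614, 1699 and 1747 in TNF, 1983, 2016 and 2107 in DEX, 2827 and 2903 in CI, and 2319.8, 2351 and 2560.3 in control. The 4 groups did not overlap, and they ran upward from TNF through DEX and control to CI. Against control the log2 fold change was -0.51 in TNF (SE 0.0563, adjusted p = 1.06e-05). Mrpl12 is the stalk protein that helps to bring translation factors to the ribosome. It read 1329, 1259 and 1405 in TNF, 1811, 2119 and 1892 in DEX, 1986 and 2058 in CI, and 1779, 1684 and 1929 in control, a log2 fold change of -0.43 in TNF (SE 0.0695, adjusted p = 0.000349). The TNF arrays lay below all the others, whereas the DEX and control arrays overlapped. Mrpl10, which anchors the stalk, fell by 0.20 (adjusted p = 0.0112), and Mrpl11 at the base of the stalk did not pass (-0.03). Mrpl18 belongs to the central protuberance of the large subunit. It had 1084, 1123 and 1205 in TNF and 1325, 1253 and 1692 in control, a log2 fold change of -0.31 (SE 0.0987, adjusted p = 0.0329). Its highest control array stood far from the other control arrays, and without that array the adjusted p was 0.156. The Mrpl18 gene overlaps Tcp1 by 1459 bases.

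Among the small subunit genes, Mrps22 and Mrps31, both particular to mitochondria, had the lowest values in TNF. The intensity of Mrps22 was 760.2, 756 and 787 in TNF, 785, 918 and 793 in DEX, 1411 and 1330.3 in CI, and 942, 956 and 1049 in control. TNF and DEX arrays overlapped below the control arrays, and both CI arrays lay above them. The log2 fold change in TNF was -0.35 (SE 0.0663, adjusted p = 0.00129). Mrps31 read 975, 914 and 998 in TNF, 1212, 1366 and 1196 in DEX, 1515 and 1327 in CI, and 1205, 1216 and 1259 in control, with a log2 fold change of -0.35 (SE 0.0664, adjusted p = 0.0014) in TNF. Only its TNF arrays stood clear of the control arrays downward. Mrps30 (-0.21, adjusted p = 0.0176), which carries a small subunit symbol but sits in the large subunit, also fell. Mrps7, Mrps12, Mrps16 and Mrps34, all of the small subunit, did not pass (-0.13, -0.04, 0.00 and -0.17).

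The other large subunit genes that fell in TNF were Mrpl50 (-0.30), Mrpl16 (-0.27), Mrpl51 (-0.25), Mrpl49 (-0.24), Mrpl17 (-0.23), Mrpl4 (-0.23), Mrpl37 (-0.21), Mrpl9 (-0.21), Mrpl34 (-0.21), Mrpl39 (-0.17) and Mrpl42 (-0.17). Those of the small subunit were Mrps5 (-0.21), Mrps35 (-0.21), Mrps27 (-0.20), Mrps2 (-0.18), Mrps23 (-0.17) and Mrps26 (-0.15). Of the 24 genes, 12 had another probe set past the filter, and in 11 of these all probe sets had the same sign, the exception being Mrps5. The number that passed rested on single arrays: it was 8 without control replicate 3, 11 without TNF replicate 2 and 13 without TNF replicate 1, with none higher in any of these. Without the 3 arrays of highest actin ratio it was 31 lower and 0 higher. Mrpl20, Mrpl12, Mrps22 and Mrps31 passed without any 1 of the arrays. Mrpl20, Mrpl12 and Mrps22 have only 1 probe set each, so agreement between probe sets could not be seen for them.

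**Figure D2:**
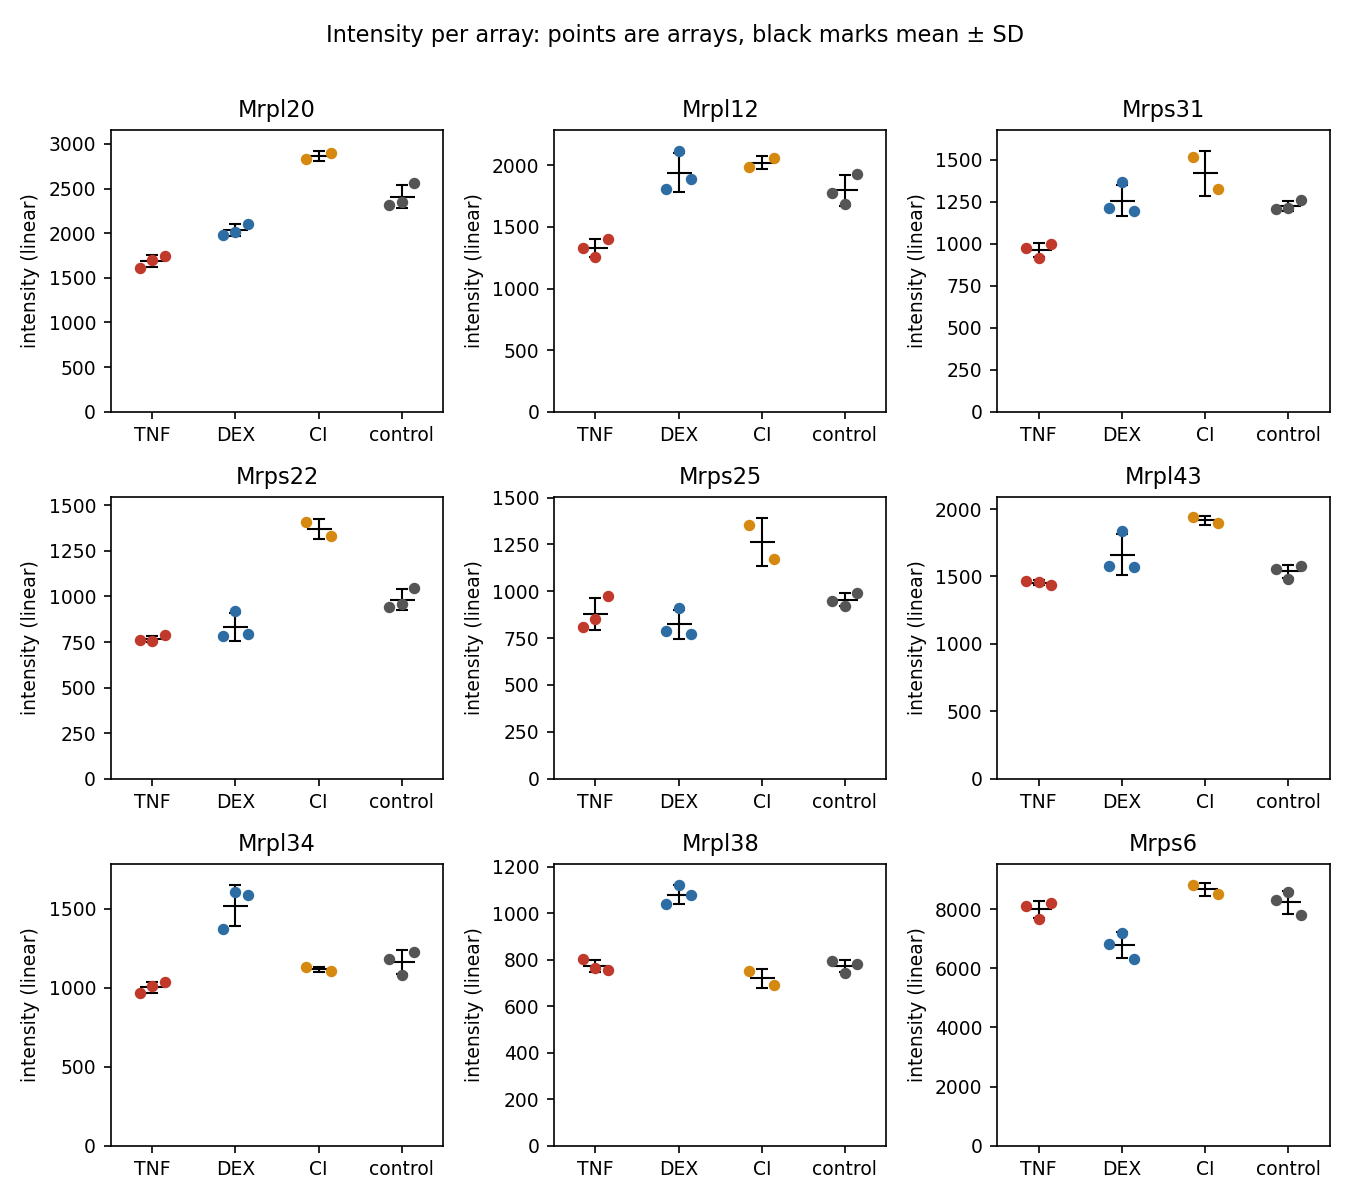
Linear intensity of 9 mitochondrial ribosomal protein genes on each array (points), by group in the order TNF, DEX, CI and control, with the mean ± SD of each group; each panel has its own scale. Mrpl20, Mrpl12 and Mrps31 are lowest in TNF, Mrpl38 and Mrpl34 are highest in DEX, and Mrps22, Mrps25 and Mrpl43 are highest in CI.

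The bases before the start of 4 of these genes are shown because the genes moved in different patterns: Mrpl20 and Mrps22 were lower in TNF and DEX and higher in CI, Mrpl12 passed only in TNF, and Mrpl34 was lower in TNF and higher in DEX. The sequences are the 250 bases upstream of the transcript start from RefSeq (build GRCm38.p6), at chr4:155802628-155802877 on the plus strand for Mrpl20, chr11:120484387-120484636 on the plus strand for Mrpl12, chr9:98601680-98601929 on the minus strand for Mrps22 and chr8:71464676-71464925 on the plus strand for Mrpl34. The genes behind the first 3 span chr4:155802878-155808831, chr11:120484637-120488754 and chr9:98588730-98601679. Capitals mark a CACGTG E box in Mrpl20, a match to the NRF1 motif (GCGCA, any 1 base, then GCGC) on the opposite strand in Mrpl12, and the ETS core CCGGAAG in Mrps22 and Mrpl34.
Mrpl20: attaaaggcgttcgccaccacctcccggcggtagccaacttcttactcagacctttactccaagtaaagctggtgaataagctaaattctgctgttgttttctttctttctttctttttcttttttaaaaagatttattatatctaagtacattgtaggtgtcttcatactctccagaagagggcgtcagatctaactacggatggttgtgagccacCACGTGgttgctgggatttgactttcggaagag
Mrpl12: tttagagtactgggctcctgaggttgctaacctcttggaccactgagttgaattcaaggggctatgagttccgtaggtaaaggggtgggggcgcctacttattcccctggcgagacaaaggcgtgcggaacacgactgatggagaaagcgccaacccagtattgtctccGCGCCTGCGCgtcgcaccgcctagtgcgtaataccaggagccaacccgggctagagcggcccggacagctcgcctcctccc
Mrps22: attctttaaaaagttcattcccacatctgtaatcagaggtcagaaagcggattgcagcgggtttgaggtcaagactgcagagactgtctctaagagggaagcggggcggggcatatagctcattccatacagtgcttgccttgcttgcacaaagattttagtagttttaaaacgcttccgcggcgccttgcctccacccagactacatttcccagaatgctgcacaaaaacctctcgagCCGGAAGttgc
Mrpl34: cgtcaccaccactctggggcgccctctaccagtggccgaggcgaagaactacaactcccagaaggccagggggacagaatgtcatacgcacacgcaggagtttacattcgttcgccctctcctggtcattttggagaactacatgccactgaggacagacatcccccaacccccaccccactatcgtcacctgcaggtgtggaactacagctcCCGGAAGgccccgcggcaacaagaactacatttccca

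RefSeq gave a promoter sequence for 67 of the 76 genes. Both strands were searched in the 250 bases before the start. ETS factors include Gabpa, the DNA-binding subunit of a regulator of nuclear genes for mitochondrial proteins, and NRF1 is another such regulator. The ETS core was present in 17 of the 67 (25.4%), against 11.8% of 14369 array genes with a sequence. The NRF1 motif was in 9 (13.4%), against 7.01%. Among the genes that fell in TNF the ETS core was in 7 of 22 (31.8%) and the NRF1 motif in 4 (18.2%), against 10 (22.2%) and 5 (11.1%) of the 45 that did not fall. For the other motifs searched the same split gave, in 22 and 45 genes, 0 and 4 for YY1 and 2 and 3 for the E box. It gave 0 and 3 for the ERR half-site, 1 and 1 for NF-kappaB, and 0 and 7 for the glucocorticoid receptor half-site. The YY1 motif AAGATGGC was in 5.97% of the 67 against 2.05% of the array genes, and the E box was in 7.46% against 8.74%. Of motifs for factors on which the treatments act, the NF-kappaB motif GGGNNTTCC was in 2.99% against 6.88%. The glucocorticoid receptor half-site AGAACA, only a part of the full element, was in 10.4% against 14.7%. The ERR half-site AAGGTCA, of receptors that act on mitochondrial genes, was in 4.48% against 4.17%. Overlaps between motifs were not removed, and a match to letters is not a binding site.

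DEX against control asked the same of 8 days of glucocorticoid. 13 genes rose and 5 fell, where 14.0% of all tested genes rose and 13.6% fell. The rise, at 13 of 76, was near that background, and falls were fewer. The median log2 fold change was 0.07, against 0.02 over all tested genes, and 54 of the 76 lay above 0. Every DEX array lay above every control array in 12 of the 13 that rose, with Mrps18b overlapping, and below every control array in the 5 that fell. Counted without the test, DEX arrays lay above all control arrays in 24 of the 76 genes and below them in 6, where this held for 21.8% and 18.7% of all tested genes.

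Mrpl38, a protein of the central protuberance that is particular to mitochondria, rose most. Its intensity was 1039, 1123 and 1078 in DEX, 802, 766 and 754 in TNF, 749 and 689 in CI, and 793, 742 and 780.2 in control. The 3 DEX arrays lay above all others, and the other groups lay close together. The log2 fold change was 0.48 in DEX (SE 0.0558, adjusted p = 1.04e-05). The probe set used may match transcripts of more than 1 gene by its type, and the other probe sets of Mrpl38 gave 0.23 and 0.12. The probe sets used for Mrps6, Mrpl37, Mrps24, Mrps12 and Mrpl19, and the second probe set of Mrps24, are of the same type. Mrpl34, the counterpart of the bacterial protein L34, had 1371, 1608 and 1586 in DEX and 1181, 1079.8 and 1227 in control, a log2 fold change of 0.38 (SE 0.068, adjusted p = 0.000568). The TNF arrays of Mrpl34 lay on the other side of control, at 965, 1010.1 and 1036. A second, dimmer probe set gave 0.08 in DEX and -0.04 in TNF, and with the mean of both the DEX change was 0.23 (adjusted p = 0.011) and the TNF call was lost (adjusted p = 0.15). Mrpl45, which lies at the exit of the peptide tunnel and faces the inner membrane, rose by 0.29 (adjusted p = 0.00356), with 2034, 2173 and 2050.1 in DEX and 1809, 1551 and 1764 in control.

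In the small subunit Mrps9 and Mrps2, both with bacterial counterparts, rose most. Mrps9 had 709.6, 974 and 790.2 in DEX and 646, 558 and 612 in control, a log2 fold change of 0.43 (SE 0.0933, adjusted p = 0.0029). DEX replicate 2 was the highest of its arrays, and the other probe sets of Mrps9 gave 0.33, 0.40 and -0.04. Mrps2 had 1521, 1577 and 1433 in DEX and 1233, 1215 and 1226 in control, a log2 fold change of 0.30 (SE 0.0602, adjusted p = 0.00161). Its groups did not overlap. The other genes that rose were Mrps35 (0.28), Mrpl47 (0.26), Mrps26 (0.23), Mrpl9 (0.22), Mrpl24 (0.22), Mrps18b (0.21), Mrps24 (0.19) and Mrpl4 (0.15). Mrpl47 was, with Mrps9, one of the genes whose probe sets differed in sign, out of 8 with another probe set past the filter.

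The 5 genes that fell in DEX were led by Mrps6, the counterpart of bacterial S6. Mrps6 had 6808, 7200.1 and 6319 in DEX, 8119, 7667 and 8204 in TNF, 8815 and 8519.8 in CI, and 8305, 8584 and 7812 in control. The DEX arrays lay below all others, with a log2 fold change of -0.28 (SE 0.0605, adjusted p = 0.00254). A second probe set gave -0.37, and the Mrps6 gene overlaps Slc5a3, a transporter of inositol, by 29138 bases. Mrpl20 (-0.24, adjusted p = 0.00464) and Mrps22 (-0.24, adjusted p = 0.0142) followed, with the intensities given above. Mrps22 did not pass without control replicate 3 (adjusted p = 0.0715), DEX replicate 1 (0.0643) or DEX replicate 3 (0.059).

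Mrps15, with 1152, 1407 and 1266 in DEX and 1501, 1430.3 and 1472 in control, was lower by the smaller margin of -0.21 (adjusted p = 0.0377). Mrpl27, whose bacterial counterpart reaches toward the peptidyl transferase centre, had 2643, 3036 and 2693 in DEX and 3115, 3133 and 3152 in control, a log2 fold change of -0.17 (adjusted p = 0.0405). Both lost their call without any 1 of the control arrays, without DEX replicate 1 (adjusted p = 0.171 for Mrps15 and 0.152 for Mrpl27) and without DEX replicate 3 (0.0825 and 0.127). With the replicate number as a block the adjusted p of Mrps15 was 0.0513. Without DEX replicate 2, the array with the highest actin ratio of its group, 10 genes passed as higher and 7 as lower, and without all 3 such arrays 11 passed as higher and 7 as lower.

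CI against control asked how these genes stood after repeated insulin. 9 genes rose and 1 fell, where 8.38% of all tested genes rose and 8.88% fell. The median log2 fold change was 0.06, against 0.01 over all tested genes, and 50 of the 76 lay above 0. In all 10 genes that passed, the CI and control arrays did not overlap. Counted without the test, both CI arrays lay above all control arrays in 29 of the 76 genes and below them in 10, where this held for 24.0% and 22.0% of all tested genes.

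Mrps22 rose most in CI, by a log2 fold change of 0.47 (SE 0.0741, adjusted p = 0.000507), with the intensities given above. Mrps25, also particular to mitochondria, had 1351 and 1170.0 in CI, 809, 851 and 974 in TNF, 789.8, 909.7 and 770.0 in DEX, and 949.7, 923 and 991 in control. Both CI arrays lay above all others, but they were far apart, with a log2 fold change of 0.39 (SE 0.0899, adjusted p = 0.00736). Without CI replicate 1 the adjusted p was 0.126, the other probe sets of Mrps25 gave 0.21 and 0.05, and the gene overlaps Nr2c2 by 3547 bases. Mrpl43 is a large subunit protein particular to mitochondria. It had 1939 and 1893 in CI and 1555, 1484 and 1575 in control, a log2 fold change of 0.31 (SE 0.0691, adjusted p = 0.00567). Its groups did not overlap. The gene shares 780 bases with Twnk, the mitochondrial DNA helicase, which did not pass in CI (-0.07).

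Mrps11, of bacterial type, had 592 and 502 in CI and 431, 445 and 434 in control (log2 fold change 0.31, adjusted p = 0.0155, and 0.244 without CI replicate 1). Mrps18b is one of 3 related genes, with Mrps18a and Mrps18c, of which only Mrps18c is counted below as of bacterial type. It read 1948 and 1923 in CI, 1773, 2044 and 1662 in DEX, 1530.2, 1489 and 1558 in TNF, and 1573, 1473 and 1673 in control. Mrps18b passed in CI (0.30, adjusted p = 0.0175) and, with overlapping arrays, in DEX (0.21, adjusted p = 0.0396), while Mrps18a and Mrps18c did not pass in any treatment (-0.15 to 0.09). Without control replicate 2 the adjusted p of Mrps18b was 0.0754 in CI and 0.162 in DEX, without DEX replicate 2 it was 0.169 in DEX, and with the replicate block it was 0.0546 in DEX. The other genes that rose in CI were Mrpl35 (0.27), Mrpl37 (0.25), Mrpl20 (0.25) and Mrpl32 (0.22). Mrpl20 did not pass in CI without control replicate 1 or without control replicate 2, nor in the fits that left a single CI array. Its log2 fold change in CI stayed between 0.22 and 0.29 over all alternatives.

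Mrps24 alone fell in CI. It had 1571 and 1634 in CI, 1901, 1971 and 1874 in TNF, 2086, 2244 and 2154 in DEX, and 1880.5, 1822 and 1956 in control. The CI arrays lay below and the DEX arrays above all the others, with log2 fold changes of -0.23 (adjusted p = 0.0134) in CI and 0.19 (adjusted p = 0.0121) in DEX. A second probe set of Mrps24 gave -0.20 and 0.19. The CI result rested on CI replicate 1 more than any other in the set: without that array 1 gene passed, Mrps22, with CI replicate 2 then assumed to vary like the other groups. It was 6 genes without control replicate 1, 5 without control replicate 2, 16 without DEX replicate 2, and 6 without the 3 arrays of highest actin ratio.

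The 3 comparisons share the control arrays, so their values are set side by side. 37 of the 76 genes passed in none of them, with log2 fold changes between -0.20 (Mrpl46) and 0.12 (Mrpl23) in TNF, -0.17 (Mrps36) and 0.20 (Mrpl58) in DEX, and -0.21 (Mrpl23) and 0.24 (Mrpl57) in CI. No gene passed in the same direction in all 3, and none did so at an unadjusted p under 0.05 in limma either. 10 genes passed in opposite directions in different treatments. Mrps22 and Mrpl20 fell in TNF and DEX and rose in CI, and Mrpl37, a large subunit protein particular to mitochondria, fell in TNF (-0.21) and rose in CI (0.25). The CI call of Mrpl20 depended on single arrays, as given above. Mrpl34, Mrpl4, Mrpl9, Mrps2, Mrps26 and Mrps35 fell in TNF and rose in DEX, and Mrps24 fell in CI and rose in DEX.

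Mrpl9, the counterpart of bacterial L9, had 1513, 1509 and 1440.0 in TNF, 1927, 2123 and 1988 in DEX, and 1742, 1648 and 1772 in control. The control arrays lay between the TNF and DEX arrays without overlap, and both other probe sets gave the same signs (-0.18 and -0.13 in TNF, 0.24 and 0.21 in DEX). Mrps35, particular to mitochondria, had 1964, 1938 and 1984 in TNF, 2561, 3034 and 2709 in DEX, and 2287, 2165 and 2352 in control. Several of the TNF calls depended on single arrays. Without control replicate 3 the adjusted p in TNF was 0.142 for Mrpl34, 0.0592 for Mrpl9, 0.0947 for Mrps35 and 0.13 for Mrpl37. Mrpl34, Mrps35 and Mrpl37 also missed the threshold without TNF replicate 1 or TNF replicate 2, and Mrpl34 and Mrps35 without control replicate 1. Mrpl9 missed the threshold in TNF without TNF replicate 3 and with the mean of its probe sets (adjusted p at most 0.0636). Mrps2 missed it in TNF without any 1 of the 6 TNF and control arrays (adjusted p from 0.0599 to 0.119). Without CI replicate 1 the adjusted p of Mrpl37 in CI was 0.257.

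Comparisons between treatments gave more calls than those with control. TNF against CI found 35 genes lower and 2 higher, where 17.3% of all tested genes were lower and 18.9% higher. Mrps22 (-0.82, adjusted p = 7.46e-07), Mrpl20 (-0.76, adjusted p = 3.23e-07) and Mrpl12 (-0.60, adjusted p = 2.53e-05) had the lowest values, and Mrpl23 (0.33, adjusted p = 0.00325) and Mrps24 (0.25, adjusted p = 0.00333) were the 2 higher. Mrpl23, a protein of the tunnel exit in bacteria, had 1086, 1146 and 1144 in TNF against 918 and 866 in CI. Its groups did not overlap. Without CI replicate 1 the count was 21 lower and 3 higher.

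TNF against DEX found 36 genes lower and 2 higher, where 18.0% of all tested genes were lower and 18.2% higher. Mrpl34 (-0.59, adjusted p = 6.48e-06), Mrpl12 (-0.54, adjusted p = 2.12e-05) and Mrps35 (-0.49, adjusted p = 1.76e-05) had the lowest values, and Mrps6 (0.24, adjusted p = 0.0063) and Mrpl27 (0.23, adjusted p = 0.00532) were the 2 higher. Mrps22, low in both groups, differed by -0.11 (95% interval -0.25 to 0.03, adjusted p = 0.207).

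DEX against CI was balanced, with 17 genes higher and 11 lower, where 17.1% of all tested genes were higher and 16.9% lower. Mrpl38 (0.58, adjusted p = 3.25e-06), Mrpl34 (0.43, adjusted p = 0.000333) and Mrps24 (0.43, adjusted p = 3.87e-05) had the highest values, and Mrps22 (-0.71, adjusted p = 2.18e-06), Mrps25 (-0.61, adjusted p = 7.79e-05) and Mrpl20 (-0.49, adjusted p = 1.91e-05) the lowest. With the mean of its 3 probe sets, Mrps25 did not pass in DEX against CI (-0.16, adjusted p = 0.109). The majority turned with single arrays, to 10 higher and 12 lower without CI replicate 2 and 13 higher and 19 lower without DEX replicate 2.

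The large and the small subunit were compared in each treatment. In TNF 15 of 47 large subunit genes (31.9%) and 9 of 29 small subunit genes (31.0%) fell, with medians of -0.13 and -0.12. Of all tested genes 11.2% fell. In DEX 7 large subunit genes (14.9%) rose and 2 (4.26%) fell (median 0.09). Of the small subunit genes 6 (20.7%) rose and 3 (10.3%) fell (median 0.04). Among all tested genes 14.0% rose and 13.6% fell in DEX. In CI 5 large subunit genes (10.6%) rose (median 0.05), and 4 small subunit genes (13.8%) rose and 1 (3.45%) fell (median 0.07). Among all tested genes 8.38% rose and 8.88% fell in CI. The large subunit shares that rose in DEX and CI were near those of all tested genes. The DEX and CI medians rested on single arrays: without DEX replicate 2 they were 0.03 for the large and 0.01 for the small subunit in DEX, and without CI replicate 1 they were -0.01 and 0.02 in CI. Array by array, the large minus the small subunit median was -0.024, -0.012 and -0.024 in TNF, 0.042, 0.056 and 0.035 in DEX, 0.011 and -0.023 in CI, and -0.006, 0.007 and -0.003 in control. The DEX values lay above those of all other arrays and the TNF values below those of the control arrays. A median over genes was given no test. Moving Mrps30 and Mrps18a to the large subunit, where structures place them, and leaving out Mrps36, which belongs to the 2-oxoglutarate dehydrogenase complex, gave 16 of 49 and 8 of 26 lower in TNF with the same medians.

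**Figure D3:**
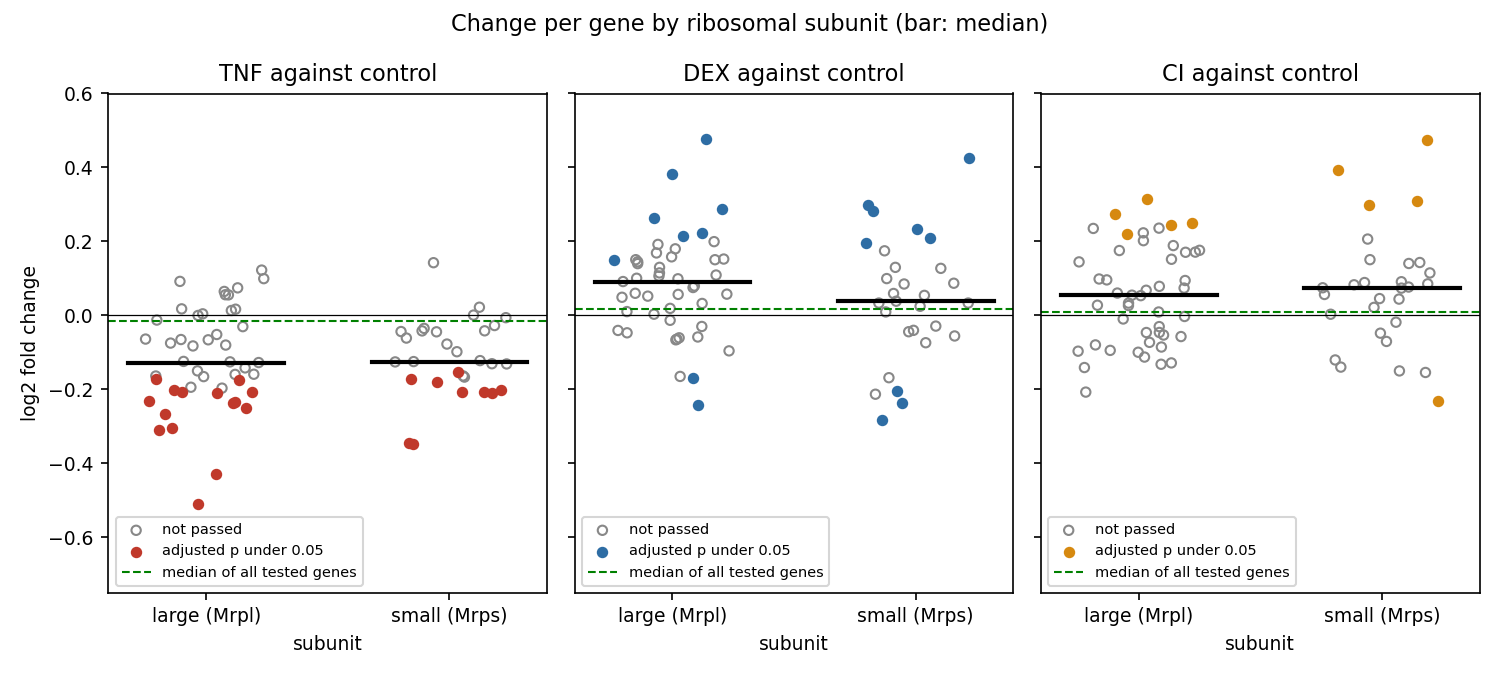
Log2 fold change of each gene against control by subunit (points; filled where the adjusted p was under 0.05), in panels for TNF, DEX and CI, with the median of each subunit as a bar and the median of all tested genes as a dashed line. In TNF both subunits have a median near -0.13, below that of all genes at -0.01, and in DEX and CI the subunit medians lie between 0.04 and 0.09.

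The 44 genes with a bacterial counterpart and the 31 counted as particular to mitochondria, Mrps18a and Mrps18b among them, were also set side by side. In TNF 11 of the 44 (25%) fell (median -0.09) and 13 of the 31 (41.9%) fell (median -0.15), against 11.2% of all tested genes. In DEX 8 of the bacterial type rose and 4 fell, and 5 of those particular to mitochondria rose and 1 fell. In CI 4 of the bacterial type (9.09%) rose and 1 (2.27%) fell, and 5 of those particular to mitochondria (16.1%) rose. Among all tested genes 8.38% rose and 8.88% fell in CI, so the share of the bacterial type that rose was near that of all tested genes. The DEX shares, 18.2% higher of the bacterial type and 16.1% of those particular to mitochondria, were near the 14.0% of all tested genes. The shares that fell in DEX were 9.09% and 3.23%, against 13.6% of all tested genes. Whether the classes differed was not tested. Outside the bacterial core, the RNase III-like Mrpl44 (-0.13 in TNF, 0.19 in DEX, 0.17 in CI) and the peptidyl-tRNA hydrolase Mrpl58 (0.07, 0.20 and 0.06 in the same order) did not pass, nor did Mrpl3 (-0.07, 0.18 and 0.08), of bacterial type.

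Other genes of mitochondrial translation were taken from fixed lists. Their counts stand beside 11.2% of all tested genes lower and 13.9% higher in TNF, 13.6% and 14.0% in DEX, and 8.88% and 8.38% in CI. 4 mitochondrial ribosomal proteins with other symbols were tested. Ptcd3, a small subunit protein that binds RNA, read 1273 ± 80.1 in TNF, 1907 ± 61.9 in DEX, 1991 ± 209 in CI (SD, n = 2) and 1617 ± 56.3 in control (SD, n = 3 for the other groups). It fell in TNF (-0.34, adjusted p = 0.00131) and rose in DEX (0.24, adjusted p = 0.014) and CI (0.29, adjusted p = 0.0119). Dap3 (-0.15 in TNF), Chchd1 (-0.03) and Gadd45gip1 (0.06) did not pass against control in any treatment.

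Of 12 mitochondrial translation factors, 4 fell in TNF and 8 did not pass. These were the elongation factors Tufm (-0.40, adjusted p = 0.000143), Gfm1 (-0.38, adjusted p = 0.000241) and Tsfm (-0.22, adjusted p = 0.00749), and Gfm2 (-0.33, adjusted p = 0.00203), which recycles ribosomes. In DEX Tufm rose (0.20) and Gfm2 fell (-0.21), and in CI Gfm1 rose (0.56, adjusted p = 6.06e-05). Gfm1 read 1010.4, 950.4 and 1031 in TNF, 1989 and 1888 in CI and 1283, 1245 and 1392 in control, in groups that did not overlap.

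Of 27 genes of mitochondrial ribosome assembly and ribosomal RNA modification, 5 fell in TNF, 8 rose in DEX and 2 rose in CI, and the others did not pass. As shares these are 18.5%, 29.6% and 7.41%, the last near that of all tested genes. The methyltransferase Mettl15 (-0.30, adjusted p = 0.00131) fell in TNF, and Rpusd3 (0.49, adjusted p = 1.04e-05), the RNA helicase Ddx28 (0.47, adjusted p = 1.72e-05) and the protease Afg3l2 (0.36, adjusted p = 0.000117) rose in DEX. Of 19 mitochondrial aminoacyl-tRNA synthetase and related genes, 5 fell in TNF (26.3%), 8 rose in DEX (42.1%) and 2 rose in CI (10.5%). Lars2, the leucine enzyme, fell in TNF (-0.38, adjusted p = 0.000288), Hars2, the histidine enzyme, fell in TNF (-0.17) and rose in DEX (0.36, adjusted p = 0.000137), and Qrsl1, of the glutaminyl-tRNA amidotransferase, rose in CI (0.65, adjusted p = 0.000676).

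Of 23 genes of mitochondrial DNA transcription and RNA processing, 7 fell in TNF, 10 rose and 2 fell in DEX, and 7 rose in CI. Hsd17b10, a subunit of mitochondrial RNase P, rose in DEX (0.65, adjusted p = 7.57e-07). Pnpt1, an RNA-degrading enzyme, fell in TNF (-0.30) and DEX (-0.58, adjusted p = 1.02e-05) and rose in CI (0.57, adjusted p = 0.000151), the same directions as Mrps22 and Mrpl20. Of 12 regulators of mitochondrial biogenesis, 4 rose and 3 fell in TNF, 4 rose and 1 fell in DEX, and 1 rose and 3 fell in CI. The receptor Esrra fell in TNF (-0.40, adjusted p = 5.05e-05). The coactivator Ppargc1b fell in TNF (-0.33) and CI (-0.35) and rose in DEX (0.29), and Gabpa rose in TNF (0.24) and DEX (0.19) and fell in CI (-0.31).

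The nuclear-encoded partners of the proteins that the mitochondrial ribosome makes, and the proteins of the cytosolic ribosome, were set beside these genes. Of 80 tested subunits of oxidative phosphorylation encoded in the nucleus, 57 (71.25%) fell and 1 (1.25%) rose in TNF (median -0.22). In DEX 12 (15%) rose and 2 (2.5%) fell (median 0.07), and in CI 8 (10%) rose and 6 (7.5%) fell (median 0.04). Of all tested genes 11.2% fell in TNF and 13.6% in DEX. The shares that rose in DEX, and that rose or fell in CI, were near the 14.0%, 8.38% and 8.88% of all tested genes. Of 46 cytosolic ribosomal protein genes, 22 (47.8%) rose in TNF and 24 (52.2%) in DEX, each with a median of 0.15 and the others not passing. Among all tested genes 13.9% rose in TNF and 14.0% in DEX. In CI 2 of the cytosolic genes (4.35%) rose and 3 (6.52%) fell (median 0.01), against 8.38% and 8.88% of all tested genes. On every TNF array the median of the mitochondrial ribosomal protein genes lay below 0 (-0.15 to -0.08) and that of the cytosolic ones above 0 (0.14 to 0.15). The adipocyte markers also had a negative median in TNF, at -0.34 with 7 of 12 lower, among them Retn (-0.83) and Cidec (-0.64), and their part in the result was not tested. ND5, which is encoded by mitochondrial DNA, had 11734, 12108 and 9540 in TNF, 12855, 9148 and 12694 in DEX, 11245 and 11085 in CI, and 14100, 13692 and 7766 in control, so that the control arrays spanned all other groups.

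**Figure D4:**
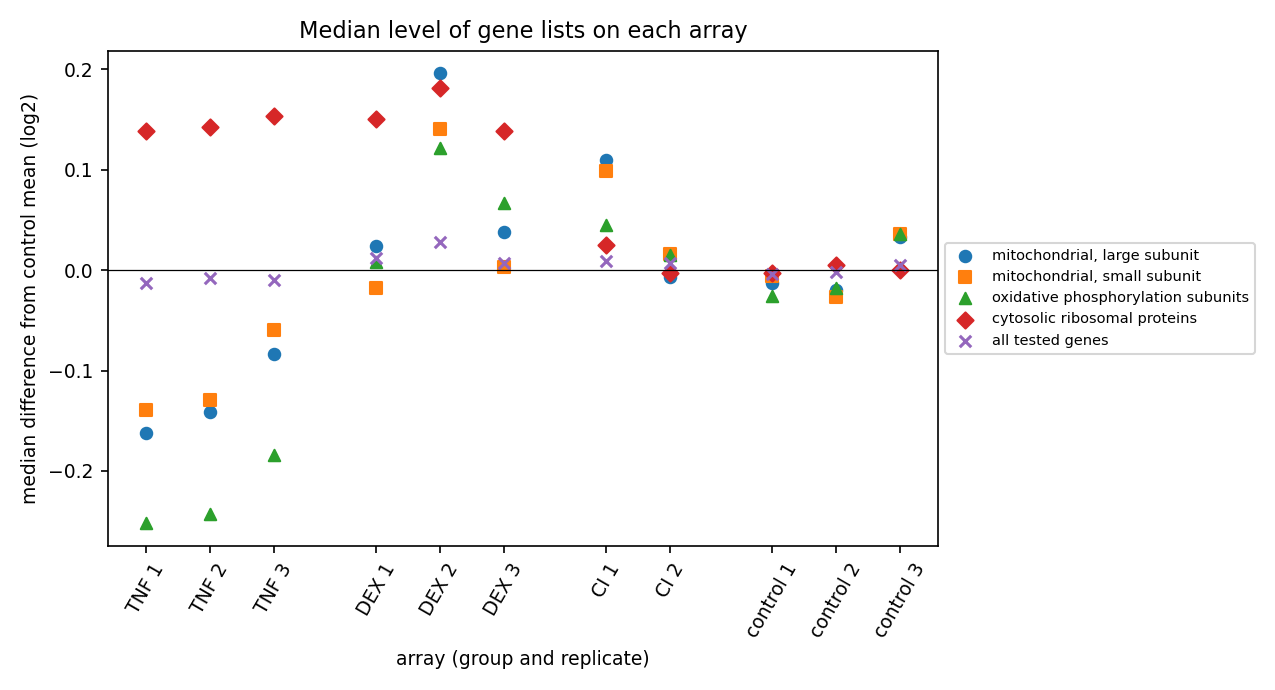
Median log2 difference from the control mean on each of the 11 arrays for large subunit genes, small subunit genes, oxidative phosphorylation subunits, cytosolic ribosomal proteins and all tested genes. On the TNF arrays both mitochondrial subunits and the oxidative phosphorylation genes lie below 0 and the cytosolic ribosomal proteins above it; DEX replicate 2 and CI replicate 1 have the highest mitochondrial ribosomal values of their groups.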

How the data were processed

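The table the authors deposited holds linear intensity for 45101 probe sets on 11 arrays, and groups were taken from the sample titles. Per the labels' protocols, 3 µg of total RNA went into biotin-labelled cRNA. How probe sets were summarised and normalized is not given in the sources. Between arrays the log2 quartiles lay within 0.0765 of each other, so no normalization was added.

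Values were transformed as log2(intensity + 16), which understates changes of dim genes. Control probe sets (64) and probe sets with several symbols (932) or none (9160) were left out. Of 18193 genes, 15623 had a mean above the 25th percentile of all probe sets (51.7) and were tested two-sided with limma 3.58.1 (R 4.3.3; lmFit, contrasts.fit, eBayes). All 11 arrays entered 1 fit with group means and no covariate. Residual degrees of freedom were 7 and prior 7.59. The p-values were adjusted by Benjamini-Hochberg over all 15623 genes. Errors are SDs between arrays or standard errors of the fit. The procedure was tested on simulated data.

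The members and gene lists were chosen with earlier results of these data known. Named genes were the 5 highest and 5 lowest called members with separated arrays in each comparison with control, those called in opposite directions, the 3 highest and 3 lowest between treatments, preset members and up to 4 genes of each other list. The remaining called members are given to account for the set. Replicate numbers were not taken as pairs. Alternatives covered pseudocount, filter, probe set choice, scaling, the replicate block, the samples fitted, an intensity trend and leaving out each array.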

Additional observations from a re-analysis of the deposited data

How the results depend on the processing

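The counts of mitochondrial ribosomal protein genes that passed changed with single arrays and with the scaling. Leaving out 1 array gave 8 to 28 for TNF against control, 14 to 19 for DEX against control, 1 to 16 for CI against control, 24 to 42 for TNF against CI, 20 to 32 for DEX against CI and 31 to 45 for TNF against DEX. The excess of higher over lower genes in DEX against CI reversed without CI replicate 2 (22 genes, 10 higher and 12 lower) and without DEX replicate 2 (32 genes, 13 and 19). Without the 3 arrays of highest actin ratio, an alternative chosen after seeing the data, 6 genes passed in CI against control. With the replicate block, the counts were 23 for TNF, 16 for DEX and 9 for CI against control, 38 for TNF against CI, 26 for DEX against CI and 40 for TNF against DEX. The block changed none of these counts by more than 1.5 times. Among calls against control of the genes named, it ended those of Mrps15 (adjusted p = 0.0513) and Mrps18b (adjusted p = 0.0546) in DEX, and between treatments those of Mrps36 in TNF against CI (0.0662) and Mrpl43 in DEX against CI (0.0564). Deviations from the group means correlated between same-numbered arrays at 0.00944 to 0.341 for TNF and control, 0.0195 to 0.277 for DEX and control and -0.0606 to -0.0581 for CI and control, against -0.317 to 0.0842, -0.347 to 0.2 and -0.0124 to 0.0606 between arrays of different numbers. With only 2 CI arrays, their deviations mirror each other, so each control array correlates with them at the same size and opposite sign. For CI the ranges of same and different numbers are therefore not independent. Not every same-numbered pair was over 0.1, and the labels state no pairing. With arrays centred on their medians, 17 genes passed in TNF against control, and over all tested genes the split was 2391 higher and 1383 lower, against 2173 and 1757 as deposited and 1790 and 2076 after quantile normalization, when 32 of the genes passed in TNF against control, 44 in TNF against CI and 52 in TNF against DEX. With the mean of all probe sets, Mrps25 in TNF against DEX turned to -0.20 (adjusted p = 0.0324, limma). The causes were not tested. Leaving out 1 array kept the TNF medians between -0.17 and -0.11 for the large and between -0.14 and -0.10 for the small subunit, the DEX medians between 0.03 and 0.12 and between 0.01 and 0.07, and the CI medians between -0.01 and 0.11 and between 0.02 and 0.10. The number of arrays limits all of this, and with CI replicate 1 or 2 left out the single CI array left takes its spread from the other groups.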
